A study of Mus musculus with 34 samples.

Results

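The Tnf, Lta and Ltb locus is described here through every peak whose centre lay in 1 of these 3 genes or within 20 kb of either end of the gene. The 30 peak lists held 210 such peaks of 596383 in all. Joining peaks that shared 1 bp or more gave 27 elements here and 93075 loci over the genome. The window covers chr17:35174439-35225351 of mm10 (50.9 kb), with gene positions from the GENCODE annotation.

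The peaks come from ChIP-seq of thioglycollate-elicited macrophages (TGEMs), inflammatory macrophages drawn from the peritoneum of mice and cultured before treatment. The wild-type C57Bl6 and Balb/cJ mice were male and 8 weeks old. The 34 samples hold 30 peak lists and 4 inputs. C57Bl/6EiJ TGEMs were treated with the PBS vehicle (Veh) or for 1 h with 100 ng/mL KLA, the lipid of the endotoxin type that activates the receptor TLR4, and were profiled for the AP-1 monomers ATF3, Jun, JunD, Fos, FosL2 and JunB and for PU.1 and CEBPα. PPARγ was profiled in Veh only. Balb/cJ TGEMs were profiled with both treatments for the same monomers except FosL2, and PPARgKO TGEMs, which lack the nuclear receptor PPARγ on a C57Bl6 background, for ATF3, Jun and JunD in Veh. The sex and age of the PPARgKO mice, and the promoter or cell type behind the PPARγ deletion, are not given in the sources used here.

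Each condition has 1 list, made from replicate experiments with the irreproducible discovery rate (IDR), so there is no spread between replicates and no test. Strength is given as the deposited count of reads in a peak and as its rank by count in its list, where rank 1 is the strongest. Counts differ in scale between lists: the median peak had a count of 277 in the C57Bl/6EiJ JunD KLA list and of 50 in the matching Veh list, 259 for PU.1 in Veh and 62 in KLA, and 18 for Jun in PPARgKO. Ratios of counts between lists were therefore divided by the median ratio over all loci present in both lists (the scaled ratio), and their 95% intervals cover counting error only. The Balb/cJ Fos Veh list was empty, the Balb/cJ JunB Veh list held 9 peaks and the C57Bl/6EiJ JunB Veh list 463, and none of these 3 lists had a peak in the window. As a check of the labelled cell type, PU.1 in Veh had between 6 and 13 peaks within 20 kb of each of the 7 macrophage marker genes examined. The same search found a peak at 2 of 3 T cell, 2 of 3 B cell, 1 of 2 hepatocyte and 1 of 2 heart muscle genes. The T cell gene Cd4 had 8 peaks and the B cell gene Ms4a1 had 6. Peak numbers thus overlapped between cell types, and the check does not separate macrophages from these by itself.

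Tnf encodes tumour necrosis factor, Lta lymphotoxin alpha and Ltb lymphotoxin beta, 3 cytokines of the TNF family whose genes lie next to each other. TNF is made by macrophages within minutes of endotoxin exposure and acts through the receptors TNFR1 and TNFR2, whereas lymphotoxins are best known from lymphocytes and from the formation of lymphoid organs. AP-1 proteins bind DNA as dimers of Jun, Fos and ATF family monomers, classically at the TRE motif TGACTCA or at the CRE motif TGACGTCA. PU.1 and CEBPα are lineage factors of myeloid cells that bind enhancers before stimulation.

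On mm10 chromosome 17, Ltb (ENSMUSG00000024399.5) spans 35194439-35196320 on the plus strand. Tnf (ENSMUSG00000024401.14) spans 35199381-35202007 and Lta (ENSMUSG00000024402.5) 35203165-35205351, both on the minus strand. Distances are given from the Tnf transcription start, upstream being the side of Lta. The elements with peaks in the most lists were all at or near Tnf or upstream of Lta, and no list had a peak from 1000 bp before to 100 bp after an annotated start of Lta or Ltb. At the start of Tnf, 20 lists had a peak.

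**Figure D1:**
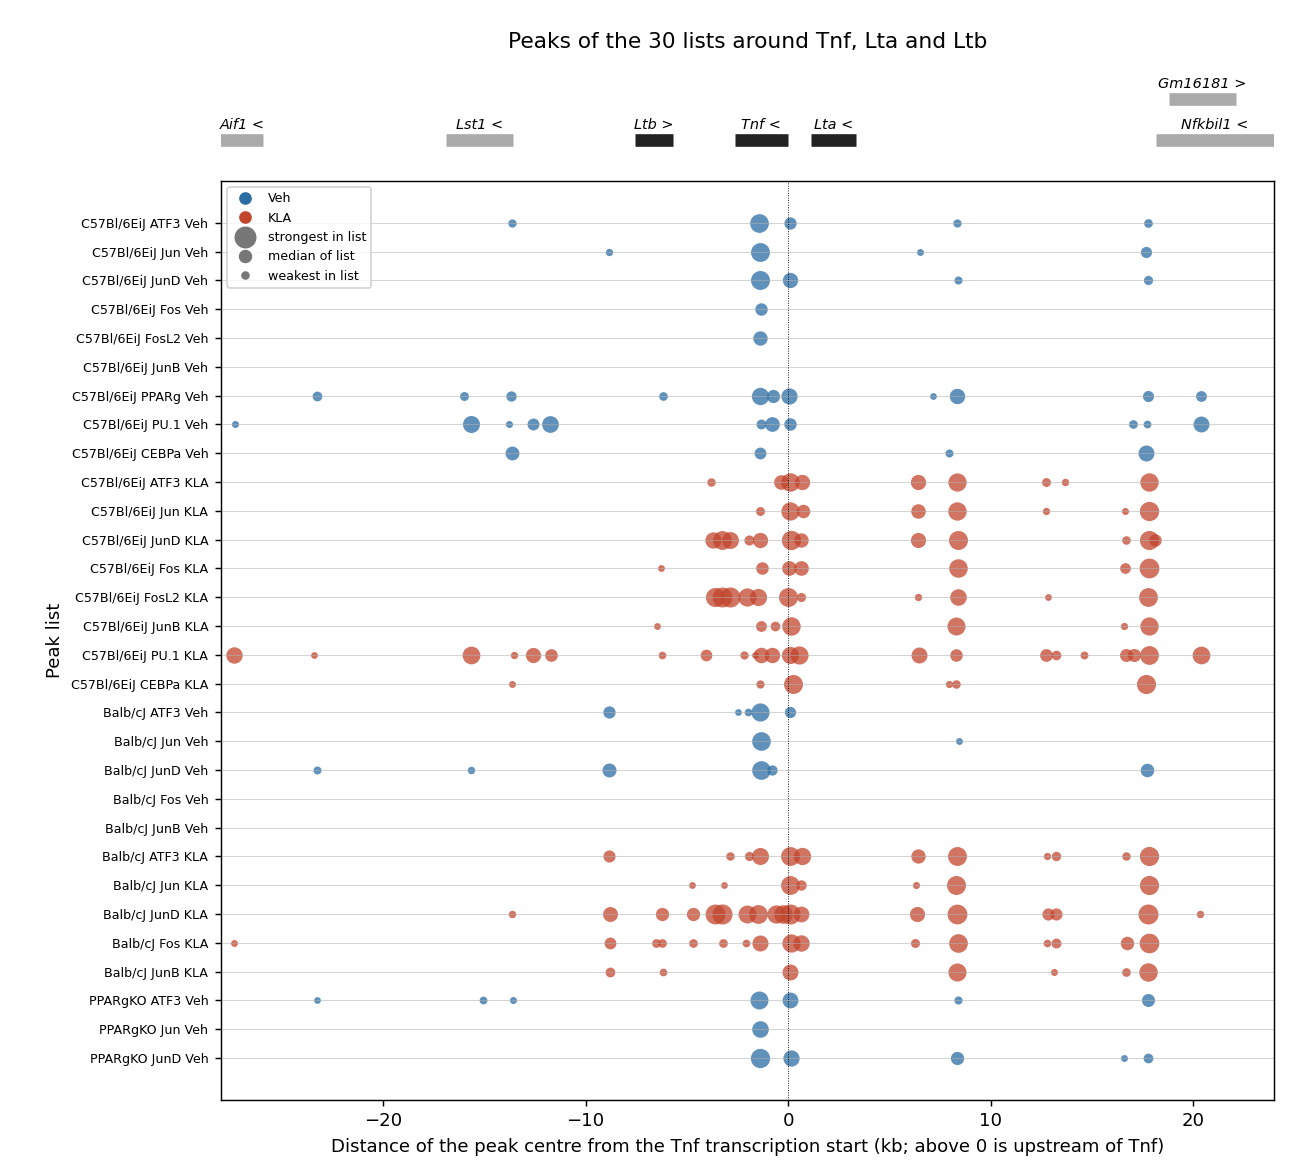
Peaks of each list (rows) by distance of the peak centre from the Tnf start in kb, coloured by treatment and sized by rank within the list, with protein-coding genes above (black for Tnf, Lta and Ltb) and arrowheads for strand. Peaks in Veh concentrate in Tnf, where 24 lists share the site in the third intron, and KLA adds columns of peaks past the 3′ end of Tnf and upstream of Lta.

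The sequences that carry the results below are shown with matches to the searched motifs in capitals. The first is the 250 bases before the Tnf start in the direction of transcription, from the RefSeq promoter table (GRCm38.p6, the assembly of mm10), since 20 lists peak over it. The other sequences are 200-base windows on the plus strand, centred on the median peak centre of the site. They show the strongest resting site, in the third intron of Tnf, the pair of upstream sites bound by all 6 monomers after KLA, and the highest-ranked FosL2 site just past the 3′ end of Tnf (centred on its JunD peak).
Tnf promoter, minus strand, chr17:35202008-35202257: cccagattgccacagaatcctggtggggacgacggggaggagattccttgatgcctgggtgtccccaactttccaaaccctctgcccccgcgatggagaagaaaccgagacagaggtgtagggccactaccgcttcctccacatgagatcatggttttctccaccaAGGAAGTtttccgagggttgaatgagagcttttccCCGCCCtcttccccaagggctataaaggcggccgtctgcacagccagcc
Tnf intron 3, chr17:35200539-35200738: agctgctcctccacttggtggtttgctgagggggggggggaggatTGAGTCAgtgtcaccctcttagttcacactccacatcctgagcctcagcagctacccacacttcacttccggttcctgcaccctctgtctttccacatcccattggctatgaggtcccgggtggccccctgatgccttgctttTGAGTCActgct
8.4 kb upstream of Tnf, chr17:35210261-35210460: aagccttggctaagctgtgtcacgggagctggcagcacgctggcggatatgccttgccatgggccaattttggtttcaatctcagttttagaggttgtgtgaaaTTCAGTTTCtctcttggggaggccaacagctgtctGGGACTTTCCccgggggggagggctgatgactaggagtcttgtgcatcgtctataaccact
17.8 kb upstream of Tnf, chr17:35219701-35219900: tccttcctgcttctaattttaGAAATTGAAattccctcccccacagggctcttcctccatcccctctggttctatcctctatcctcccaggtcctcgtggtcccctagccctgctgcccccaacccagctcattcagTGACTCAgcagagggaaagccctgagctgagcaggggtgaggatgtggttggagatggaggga
Past the Tnf 3′ end, chr17:35199061-35199260: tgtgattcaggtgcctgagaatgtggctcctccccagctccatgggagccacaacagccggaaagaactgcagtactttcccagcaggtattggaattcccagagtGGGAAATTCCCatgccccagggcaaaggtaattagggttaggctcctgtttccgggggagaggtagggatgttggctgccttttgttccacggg
In the promoter the capitals mark the PU.1 motif ACTTCCT and the Sp1 motif GGGCGG, each on the opposite strand, 84 to 78 and 49 to 44 bases before the start. In the third intron they mark 2 TRE motifs, both read on the minus strand. In the upstream windows they mark an IRF motif (GAAANNGAA) and an NF-kB motif 8.4 kb from the start, and an IRF motif and a TRE 17.8 kb from the start. Past the 3′ end they mark an NF-kB motif that matches on both strands in overlapping positions.

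Motifs were searched on both strands. Of the 27 elements, 4 held a TRE anywhere in the element (20.7% of 92963 loci of the genome did), and 2 within the central 200 bp (18.0% of loci). The centres of the 2 long joined elements over Tnf lie away from the intron and promoter sites, so the 2 TRE motifs shown in the intron are not in that central count. None held the CRE motif, which 0.986% of loci had in the central 200 bp. The NF-kB motif was in the central 200 bp of 6 elements (6.12% of loci) and the IRF motif in that of 4 (8.48%). The motif of PU.1 was in the central 200 bp of 6 elements (22.7%), and TTGCNNAA, the motif of CEBP factors, in that of 3 (14.2%). The related AP-1 motifs TGACCTCA and TGAGCTCA were in the central 200 bp of 2 and 1 elements (2.89% and 0.980% of loci), GGGCGG in that of 1 (11.6%) and the Egr motif GCGGGGGCG in none (0.560%). The central counts also include matches of the long joined elements that lie off their main sites. The NF-kB match of the promoter element is inside the gene, and the printed promoter holds none. The TGACCTCA match of the intron element is outside the third intron. Among 32851 promoters of the RefSeq table, 5.20% held a TRE, 9.35% the PU.1 motif, 35.7% the Sp1 motif and 8.46% the NF-kB motif. A match is a sequence feature and does not show binding.

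The strongest resting AP-1 site of the locus was inside Tnf. Peaks of 24 lists clustered in the third intron of the gene (35200564-35200857), with a median centre 1368 bp past the start. In C57Bl/6EiJ Veh, ATF3 had a count of 148 (rank 1804 of 23160), Jun of 57 (rank 1043 of 15548) and JunD of 117 (rank 1235 of 19653). Fos and FosL2, which had short lists in Veh, had counts of 23 (rank 806 of 1804) and 28 (rank 1752 of 5329), their only peaks in the window without KLA. JunB was the 1 monomer with no Veh peak there. Thus 5 monomers shared this site at rest, more than at any other element of the window.

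The other factors were at the same intron. PPARγ had a count of 77 (rank 4962 of 31089), CEBPα of 77 (rank 6236 of 12892) and PU.1 of 211 (rank 25827 of 41573), so the site ranked high for AP-1 and low for PU.1. In Balb/cJ Veh, ATF3 had a count of 83 (rank 2110 of 19506), Jun of 63 (rank 889 of 10957) and JunD of 113 (rank 2296 of 28652). These 3 monomers therefore ranked in the upper part of their lists in both strains. The scaled Balb/cJ to C57Bl/6EiJ ratio in Veh was 0.935 for ATF3 (0.706 to 1.23), 1.06 for Jun (0.728 to 1.54) and 0.874 for JunD (0.669 to 1.14), with intervals that include 1.

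After KLA, Jun and JunD had lower ranks at this intron in C57Bl/6EiJ. Jun went from a count of 57 to 24 in C57Bl/6EiJ (rank 12106 of 17480), a scaled ratio of 0.373 (0.222 to 0.611) that was higher than that of only 0.377% of the loci in both Jun lists. It was the 1 element of 3 with Jun in both lists whose ratio was at most 0.5, against 2.9% of shared loci. In Balb/cJ, Jun went from a count of 63 in Veh to no peak in KLA. JunD in C57Bl/6EiJ had a count of 401 in KLA (rank 8723 of 31640), a scaled ratio of 0.587 (0.477 to 0.728), above 6.83% of shared loci.

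ATF3 differed in its pattern between strains at this intron. In C57Bl/6EiJ the Veh peak with a count of 148 had no counterpart among the 36745 ATF3 peaks in KLA, whose lowest count was 31. In Balb/cJ, ATF3 was present in KLA with a count of 91 (rank 6444 of 36821), a scaled KLA to Veh ratio of 0.675 (0.496 to 0.921). A peak absent from a list had no reproducible call there, which is not a count of 0. JunD in Balb/cJ went from 113 to 133, the latter peak centred 1496 bp past the start in the last exon, a scaled ratio of 1.05 (0.808 to 1.36).

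The remaining factors at the intron after KLA ranked from the upper to the lower part of their lists. In C57Bl/6EiJ, Fos had a count of 55 (rank 10740 of 24365), JunB of 31 (rank 7409 of 13375) and FosL2, centred 1468 bp past the start, of 77 (rank 1763 of 10619). CEBPα went from 77 to 47, a scaled ratio of 0.665 (0.452 to 0.968). PU.1 went from 211 to 99, and since PU.1 counts were lower in KLA across shared loci (median ratio 0.249) its scaled ratio was 1.89 (1.47 to 2.41). Fos in Balb/cJ had a count of 118 (rank 9370 of 40459).

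At the Tnf promoter KLA brought the full set of AP-1 monomers. In Veh, ATF3 had a count of 59 (rank 10662 of 23160) and JunD of 68 (rank 5455 of 19653) in C57Bl/6EiJ, and Jun, Fos, FosL2 and JunB had no peak. In KLA, ATF3 had a count of 192 (rank 3298 of 36745), Jun of 58 (rank 1809 of 17480) and JunD of 707 (rank 1424 of 31640). Fos had a count of 68 (rank 7633 of 24365), FosL2 of 97 (rank 692 of 10619) and JunB of 71 (rank 1253 of 13375). All 6 monomers were thus at the promoter after KLA, with 2 of them already there at rest, and the median peak centre lay 110 bp before the start.

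The scaled KLA to Veh ratio at the promoter was 2.11 for ATF3 (1.57 to 2.88), above 94.3% of shared loci, and 1.78 for JunD (1.39 to 2.32), above 89.98% of shared loci. In Balb/cJ, ATF3 went from 34 (rank 10294 of 19506) to 139 (rank 2480 of 36821), a scaled ratio of 2.52 (1.72 to 3.78). Balb/cJ JunD had no Veh peak at the promoter itself, and in KLA a count of 225, rank 133 of 33850. Its nearest Veh peak, with a count of 36, was in the first intron, so the ratio of the whole joined element (5.56) compares unlike positions. Jun, JunB and Fos in Balb/cJ KLA had counts of 77 (rank 827 of 11317), 68 (rank 5061 of 21667) and 179 (rank 4172 of 40459).

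CEBPα had no promoter peak in Veh and in KLA a count of 179 (rank 922 of 14802), centred 224 bp before the start, farther upstream than every AP-1 peak of the site. PU.1 had a count of 282 in Veh (rank 18615 of 41573) and 129 in KLA (rank 6732 of 40645), a scaled ratio of 1.84 (1.48 to 2.27). A second PU.1 peak in the first intron, 796 bp past the start in Veh, had counts of 369 and 98 and a scaled ratio of 1.07 (0.846 to 1.34). PPARγ had a promoter count of 63 (rank 6926 of 31089).

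**Figure D2:**
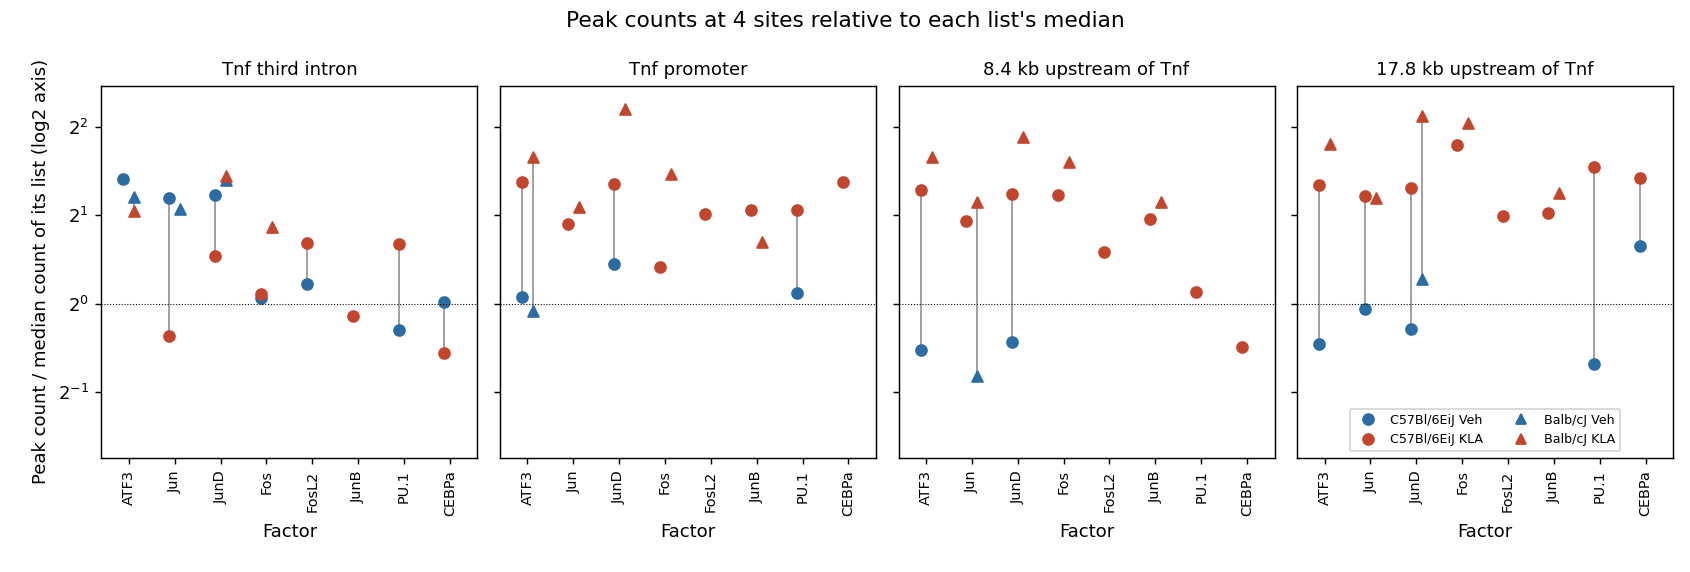
Peak count divided by the median count of its list (log2 axis) for each factor at 4 sites, in Veh (blue) and KLA (red), circles for C57Bl/6EiJ and triangles for Balb/cJ, with lines joining Veh and KLA of 1 strain where both lists have a peak. In the third intron the C57Bl/6EiJ points of Jun, JunD and CEBPα and the Balb/cJ points of ATF3 are lower in KLA. At the promoter and both upstream sites the KLA points of the AP-1 monomers are above the Veh points wherever both exist.

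Between Tnf and Lta, an element with a median centre 648 bp before the Tnf start had peaks in KLA lists only. In C57Bl/6EiJ, ATF3 had a count of 114 (rank 10013 of 36745), Jun of 35 (rank 6656 of 17480), JunD of 365 (rank 10348 of 31640), Fos of 68 (rank 7633 of 24365) and FosL2 of 38 (rank 7187 of 10619). PU.1 had a count of 157 there in KLA (rank 4403 of 40645) and no peak in Veh. In Balb/cJ the counts were 96 for ATF3, 32 for Jun, 80 for JunD and 124 for Fos. JunB had no peak in either strain.

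Upstream of Lta, KLA peaks were strongest at 2 elements far from any member start. At 8.4 kb from the Tnf start, Veh counts were 39 for ATF3 (rank 17320 of 23160) and 37 for JunD (rank 15073 of 19653) in C57Bl/6EiJ. In KLA they were 180 for ATF3 (rank 3947 of 36745), 656 for JunD (rank 2052 of 31640), 59 for Jun (rank 1717 of 17480), 119 for Fos (rank 2149 of 24365), 72 for FosL2 (rank 2136 of 10619) and 66 for JunB (rank 1578 of 13375). A site with weak AP-1 peaks at rest was thus in the upper part of every AP-1 list in KLA. The scaled ratio was 2.99 for ATF3 (2.11 to 4.35) and 3.04 for JunD (2.18 to 4.36), above 98.5% and 99.2% of shared loci.

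Balb/cJ KLA peaks also ranked high at this site. Jun had a count of 17 in Veh (rank 10225 of 10957) and 80 in KLA (rank 705 of 11317), a scaled ratio of 3.98 (2.34 to 7.17), above 99.9% of shared loci. ATF3, JunD, JunB and Fos, without a Veh peak, had KLA counts of 139 (rank 2480 of 36821), 181 (rank 643 of 33850), 93 (rank 2473 of 21667) and 197 (rank 3238 of 40459). In C57Bl/6EiJ, PU.1 (count 68) and CEBPα (count 49) had peaks there in KLA only, both in the lower part or middle of their lists (rank 18075 of 40645 and 10726 of 14802). PPARγ had a peak there in C57Bl/6EiJ Veh with a count of 56 (rank 8332 of 31089).

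The element 17.8 kb from the Tnf start, beside the 3′ end of Nfkbil1 (35220175-35235792, a gene named for its likeness to NF-kB inhibitors), held peaks of 22 lists. In C57Bl/6EiJ Veh, ATF3 had a count of 41 (rank 16460 of 23160), Jun of 24 (rank 8245 of 15548) and JunD of 41 (rank 13165 of 19653). In KLA, ATF3 had a count of 188 (rank 3516 of 36745), Jun of 72 (rank 801 of 17480), JunD of 686 (rank 1663 of 31640), Fos of 177 (rank 435 of 24365), FosL2 of 95 (rank 782 of 10619) and JunB of 69 (rank 1384 of 13375). For Jun and Fos this was the strongest peak of the window. The scaled ratio was 2.97 for ATF3 (2.11 to 4.28), 2.66 for Jun (1.66 to 4.41) and 2.87 for JunD (2.09 to 4.03).

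The lineage factors also gained rank at this element. PU.1 went from a count of 162 in Veh (rank 33045 of 41573) to 181 in KLA (rank 3038 of 40645), a scaled ratio of 4.49 (3.61 to 5.59) that was above 99.9% of loci in both PU.1 lists. CEBPα was strong before and after, with a count of 119 (rank 3016 of 12892) and 185 (rank 807 of 14802), a scaled ratio of 1.69 (1.34 to 2.15). In Balb/cJ, JunD went from 52 (rank 10899 of 28652) to 212 (rank 227 of 33850), a scaled ratio of 3.62 (2.66 to 5.01). Balb/cJ ATF3, Jun, Fos and JunB, without a Veh peak, had KLA counts of 154, 82, 268 and 100.

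A weaker element 6.4 kb from the Tnf start had Jun in Veh (count 14, rank 14434 of 15548). In KLA it had Jun (count 38), ATF3 (113), JunD (395), FosL2 (30) and PU.1 (106) in C57Bl/6EiJ. Its scaled Jun ratio was 2.41 (1.27 to 4.81). The Jun KLA count in Balb/cJ was 21, a scaled Balb/cJ to C57Bl/6EiJ ratio of 0.502 (0.280 to 0.878).

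**Figure D3:**
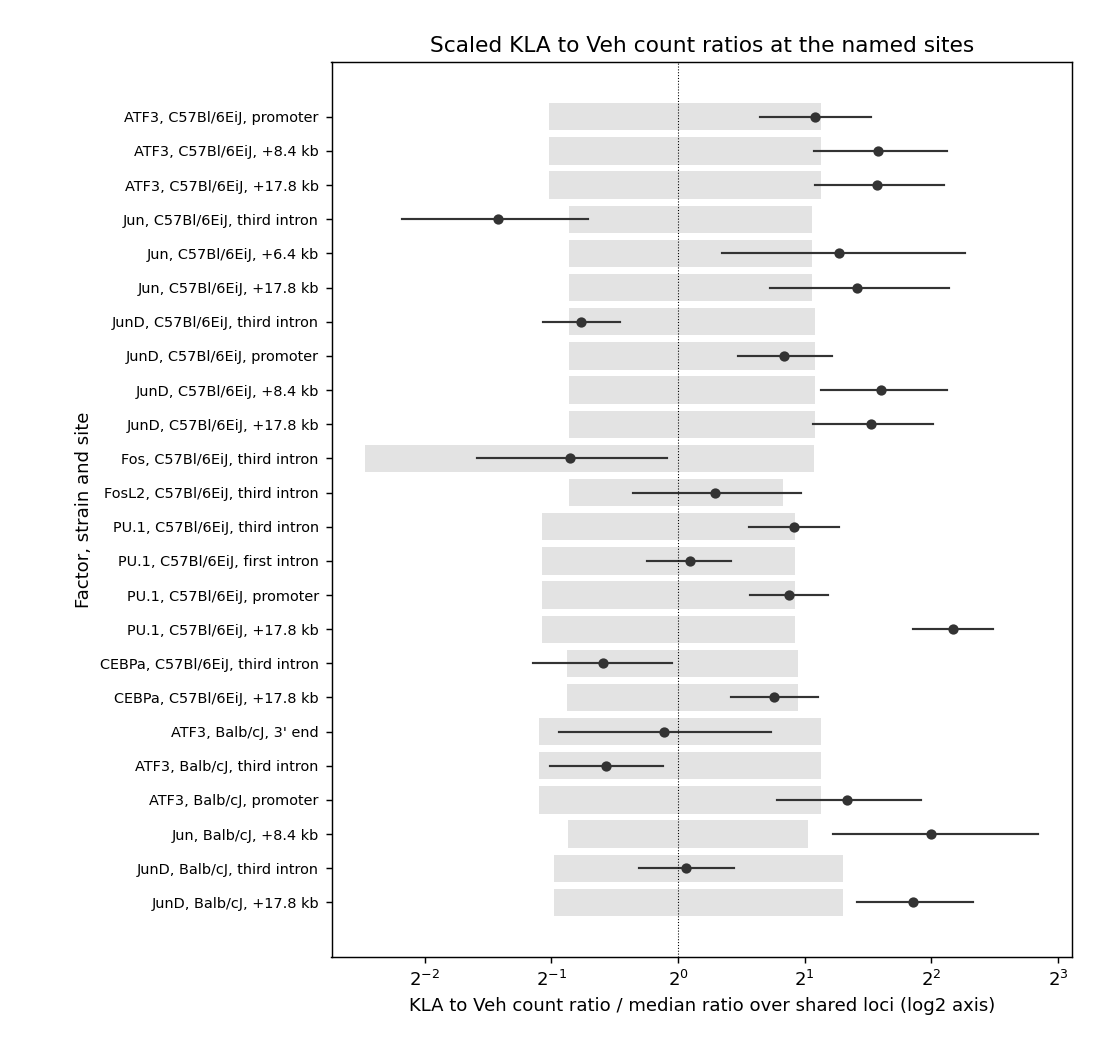
Scaled KLA to Veh count ratio (log2 axis) at the named sites, with 95% intervals for counting error (lines) and the 5th to 95th percentile of all loci shared by the 2 lists (grey bars). ATF3, Jun and JunD lie above the grey bars 8.4 or 17.8 kb upstream of Tnf, PU.1 at 17.8 kb lies farthest above its bar among the C57Bl/6EiJ rows, and Jun in the third intron lies below it.

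Counted over the window, 14 elements had an AP-1 peak in C57Bl/6EiJ. Of these, 7 were in KLA only (38.1% of all AP-1 loci), 5 in both treatments (49.0% of all AP-1 loci) and 2 in Veh only. All 6 monomers were present in KLA at 3 of the 12 elements with any (13.9% of loci), namely the promoter and the elements 8.4 and 17.8 kb upstream. The elements in KLA only were the 1 between Tnf and Lta, 3 farther upstream, 2 past the Tnf 3′ end and 1 within Ltb.

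Each monomer gave its own count. KLA peaks without a Veh peak were at 5 of 10 elements for ATF3 (43.3% of its loci), 5 of 9 for Jun (34.9%), 5 of 9 for JunD (45.0%) and 8 of 9 for FosL2 (59.8%). For Fos they were at 6 of 7 (92.7%) and for JunB at 6 of 6 (96.6%), so these 2 counts are close to what their short Veh lists give everywhere. Among elements in both lists, the scaled ratio was at least 2 at 3 of 3 for ATF3 (6.94% of shared loci), 2 of 3 for Jun (5.77%) and 2 of 4 for JunD (6.41%). In Balb/cJ it was at least 2 at 1 of 3 elements for ATF3 (6.86%), 1 of 1 for Jun (5.45%) and 2 of 4 for JunD (9.38%), 1 of the latter being the joined promoter element described above.

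PU.1 had peaks at 10 elements in Veh and at 19 in KLA, which included all 10. The 9 gained elements compare with a share of 19.0% over all PU.1 loci, and 7 of them had an AP-1 peak in KLA, as did 59.4% of all loci that gained PU.1. Among the 10 shared elements the scaled PU.1 ratio was at least 2 at 2 (3.99% of shared loci), the element 17.8 kb upstream and an intron of Aif1, where counts were 138 and 114 and the ratio was 3.32 (2.57 to 4.29). On the far side of Ltb, in Lst1 and between Lst1 and Ltb, 3 elements with PU.1 in Veh (counts 512, 266 and 490, ranks 7301, 20049 and 7964 of 41573) had no AP-1 peak in C57Bl/6EiJ.

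Past the 3′ end of Tnf, toward Ltb, JunD and FosL2 formed a group of strong KLA peaks with little of the other monomers. FosL2 in C57Bl/6EiJ KLA had a count of 140 centred 2876 bp from the Tnf start (rank 47 of 10619), 129 at 3266 bp (rank 103) and 100 at 3590 bp (rank 592). These were its 3 strongest peaks in the window, and FosL2 had none of them in Veh. JunD in C57Bl/6EiJ KLA had counts of 483 (rank 5676 of 31640), 652 (rank 2108) and 448 (rank 6850) at the corresponding positions.

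In Balb/cJ the JunD KLA peak 3267 bp from the start had a count of 257 and rank 23 of 33850, its highest rank in the window, and the peak at 3610 bp a count of 193 (rank 443). The scaled Balb/cJ to C57Bl/6EiJ ratio of JunD in KLA was 1.98 (1.71 to 2.29) and 2.17 (1.82 to 2.57) at these 2 elements, above 98.8% and 99.3% of shared loci. Scaled by the strongest 1000 shared loci instead, it was 1.72 and 1.88. The monomers other than JunD and FosL2 had lower ranks or no peak there. ATF3 in C57Bl/6EiJ had a count of 52 (rank 26895 of 36745) at the farther element, and in Balb/cJ, the nearer element had ATF3 (30, rank 26997 of 36821), Fos (44, rank 28690 of 40459) and Jun (18, rank 11035 of 11317).

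Genome-wide this combination was rare. Of 9828 loci with JunD and FosL2 in C57Bl/6EiJ KLA, 117 (1.19%) had none of ATF3, Jun, Fos and JunB in KLA. In the window this was so at 1 of 8 elements, the nearer one. Of 111 FosL2 peaks that ranked 103 or higher, 8 lay at loci without the 4 other monomers, and 2 of these 8 were the peaks beside Tnf. The FosL2 centre lay within 2 kb past the annotated end of a protein-coding gene at 225 (2.29%) of the 9828 loci and at 14 of the 117.

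The JunD and FosL2 peaks continued into Tnf. Over its 3′ untranslated region, FosL2 had a count of 88 (rank 1119 of 10619), JunD of 237 in C57Bl/6EiJ (rank 19098 of 31640) and of 110 in Balb/cJ (rank 4181 of 33850). Further Balb/cJ JunD peaks in KLA had counts of 117 in the first intron and 127 in the first exon (ranks 3559 and 2775), where the C57Bl/6EiJ JunD list had none. Other monomers were also present inside the gene. Over the 3′ untranslated region, Balb/cJ had Fos (37, rank 32616 of 40459) and ATF3 (33, rank 24738 of 36821) in KLA, and ATF3 in Veh (22). In the first intron, C57Bl/6EiJ KLA had ATF3 (105, rank 11401 of 36745) and JunB (28, rank 8454 of 13375), and no FosL2 peak was centred there.

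**Figure D4:**
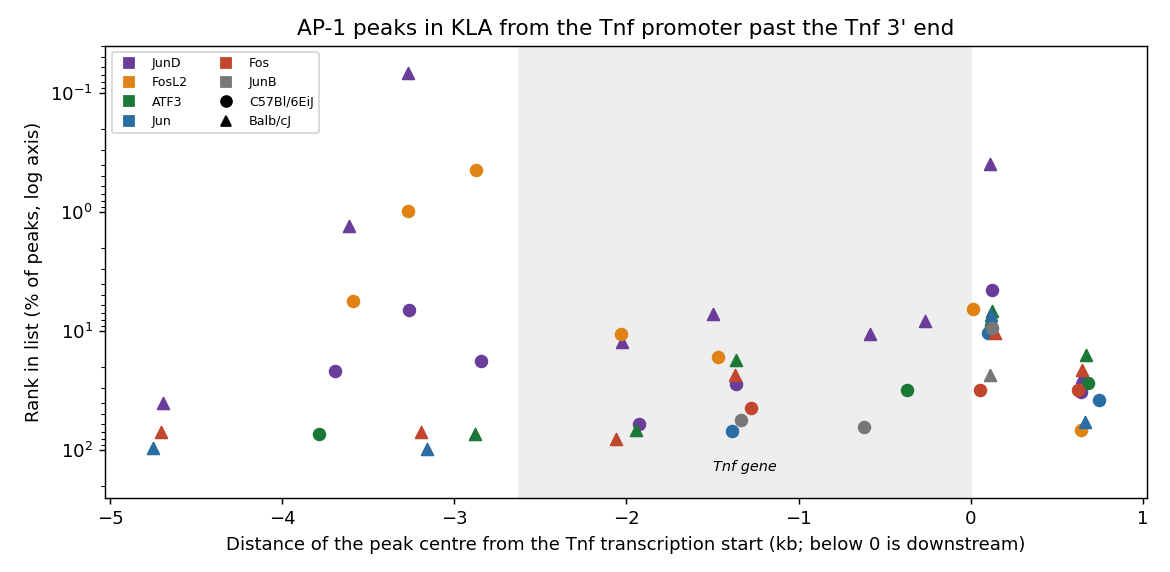
Rank of each AP-1 KLA peak in its list as a percent of the list (log axis, strongest at the top) by distance of its centre from the Tnf start in kb, coloured by monomer, circles for C57Bl/6EiJ and triangles for Balb/cJ, with the Tnf gene in grey. In the plotted range left of the gene the JunD and FosL2 points are above all ATF3, Jun and Fos points, whereas at the promoter points of all 6 monomers are present, the lowest being C57Bl/6EiJ Fos (rank 7633 of 24365).

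The strains shared KLA elements at about the share seen over the genome. Over the 5 monomers profiled in both, 17 elements had a KLA peak in either strain and 11 in both (65.4% of all such loci). A KLA peak in Balb/cJ only was found at 5 (25.1% of loci), and in C57Bl/6EiJ only at 1, an ATF3 peak of count 44 (rank 30894 of 36745). The element 8820 bp past the Tnf start, upstream of Ltb, stood out among the 5 by its number of lists. There, Balb/cJ ATF3 had a count of 38 in Veh and 46 in KLA, JunD of 55 and 71, JunB of 34 in KLA and Fos of 66 in KLA.

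In C57Bl/6EiJ the only peak at that element was Jun in Veh, with a count of 16 (rank 13239 of 15548). The Balb/cJ peaks had moderate ranks, such as 8916 of 19506 for ATF3 in Veh and 10028 of 33850 for JunD in KLA, and did not change with KLA beyond their intervals: 0.746 for ATF3 (0.475 to 1.18) and 1.15 for JunD (0.796 to 1.66). Sequence differences between the strains were not analysed here. The other 4 elements in Balb/cJ only had counts of 27 for JunD (rank 28352 of 33850) at 2 of them and 30 for Fos (rank 37089 of 40459) at another, and of 58 for JunD (rank 13452 of 33850), 44 for Fos and 19 for Jun at the fourth.

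Between the strains after KLA, the scaled Balb/cJ to C57Bl/6EiJ ratio of JunD had intervals above 1 at 5 of the 7 sites of the named elements with JunD in both strains, where counts were scaled by the median ratio over shared loci (0.199). It was 2.33 (1.84 to 2.94) over the 3′ untranslated region of Tnf, 1.67 (1.36 to 2.03) in the third intron, 1.60 (1.37 to 1.86) at the promoter, 1.39 (1.17 to 1.64) at 8.4 kb and 1.55 (1.32 to 1.81) at 17.8 kb. Its intervals included 1 between Tnf and Lta, with 1.10 (0.854 to 1.41), and at 6.4 kb, with 0.929 (0.713 to 1.19). The ATF3 ratio was 1.17 (0.937 to 1.47) at the promoter, 1.37 (1.03 to 1.81) between Tnf and Lta, 0.861 (0.619 to 1.19) at 6.4 kb, 1.25 (0.996 to 1.57) at 8.4 kb and 1.33 (1.07 to 1.65) at 17.8 kb.

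The other monomers had intervals on either side of 1 or including it. Fos had 1.17 (0.841 to 1.64) in the third intron, 1.43 (1.08 to 1.92) at the promoter, 0.993 (0.733 to 1.35) between Tnf and Lta, 0.901 (0.714 to 1.14) at 8.4 kb and 0.824 (0.679 to 1.00) at 17.8 kb. Jun had 1.21 (0.847 to 1.73) at the promoter, 0.831 (0.498 to 1.38) between Tnf and Lta, 1.23 (0.870 to 1.76) at 8.4 kb and 1.04 (0.745 to 1.44) at 17.8 kb, besides the value at 6.4 kb given above. JunB had 0.623 (0.440 to 0.881) at the promoter, 0.916 (0.661 to 1.28) at 8.4 kb and 0.942 (0.686 to 1.30) at 17.8 kb.

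PPARγ had peaks at 10 elements of the window, 5 of them with ATF3, Jun or JunD in Veh (55.9% of all PPARγ loci). Of the 7 elements with 1 of these monomers in C57Bl/6EiJ Veh, 5 had 1 in PPARgKO as well (78.2% of such loci). By monomer, ATF3 was kept at 5 of 5 elements (79.3% of its loci), JunD at 4 of 4 (54.4%) and Jun at 1 of 4 (22.1%). The Jun peaks without a PPARgKO counterpart had counts of 24 at 17.8 kb (rank 8245 of 15548), 16 and 14, and the PPARgKO Jun list was short, with 4290 peaks. In the third intron the PPARgKO counts were 73 for ATF3 (rank 3323 of 28318), 25 for Jun (rank 853 of 4290) and 113 for JunD (rank 839 of 19355). This intron held the highest-ranked peak of the window in the PPARgKO ATF3 and JunD lists, and the only peak of the window in the PPARgKO Jun list.

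The scaled PPARgKO to C57Bl/6EiJ ratio in the third intron was 0.782 for ATF3 (0.583 to 1.04), 0.908 for Jun (0.544 to 1.48) and 1.11 for JunD (0.851 to 1.45). At the promoter it was 1.32 for ATF3 (0.883 to 1.96) and 1.02 for JunD (0.706 to 1.46). At 8.4 kb the JunD ratio was 1.28 (0.798 to 2.05), and at 17.8 kb 0.786 (0.468 to 1.30). Each of these intervals includes 1, and with 1 list per genotype they leave room for changes of the size of their bounds.

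Measured per gene, with the same 20 kb on each side, Tnf and Lta each had 12 AP-1 loci in C57Bl/6EiJ KLA and 7 in Veh, and Ltb had 10 and 6. Tnf had 7 loci in KLA only, and 2.01% of 21728 protein-coding genes had at least as many, the median gene having 0. The windows of the 3 genes overlap, so these counts are largely of the same loci. Genes with a locus in KLA only were 24 of 35 in the list of the TNF pathway, against 43.8% of protein-coding genes. The searched span grows with gene length, which was not adjusted for. Some windows of the list also overlap and can count the same locus, such as those of Tnfrsf1a and Ltbr. Whether the pathway list differs from other genes was not tested.

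Among receptors, all 4 had such a locus. Tnfrsf1b, which encodes TNFR2, had 9 of them among 20 AP-1 loci in KLA, whereas Tnfrsf1a, which encodes TNFR1, had 1 among 8. Ltbr, the lymphotoxin beta receptor, and Tnfrsf14 had 2 each. All 8 adaptors and kinases had at least 1, from 1 for Tradd to 9 for Traf1, which links TNFR2 to survival signalling.

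The feedback group had the highest median count, 9. Tnfaip3 (A20, a brake on NF-kB) had 9 loci in KLA only, Tnip1, its binding partner, 10, and Zfp36 (tristetraprolin, which destabilises Tnf mRNA) 2. Among survival and death genes, Cflar, an inhibitor of caspase-8, had 10, whereas Birc2, Birc3 and Casp8 had 0. Adam17, the protease that sheds TNF from the membrane, had 1. Of 15 other ligands, 7 had such a locus, with 7 each at Tnfsf4, Tnfsf8 and Tnfsf9, and no AP-1 locus of either treatment lay near Tnfsf11, Cd70, Cd40lg, Fasl or Eda.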

How the data were processed

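ChIP-seq peak lists of AP-1 monomers, PU.1, CEBPα and PPARγ in TGEMs were analysed. Bowtie2 alignment to mm10 by the authors used, for Balb/cJ reads, a strain genome with positions converted back to mm10. HOMER peaks over input were then kept where the IDR was below 0.05. The deposited count of each peak is a whole number not scaled to library size, and how replicate counts were combined is not given in the sources used here. The deposited score is the scaled IDR, between 540 and 1000, and was not used for ranking. Counts of a list are its depth here and summed to between 203 and 13809143 in lists that were not empty, and the ranges of ratios cover counting error only.

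Peaks with a centre in the window were joined where they overlapped by at least 1 bp, with the strongest peak per list taken. Joining chains neighbouring peaks, so sites inside an element were also formed from centres within 100 bp of each other. Named elements were those at a member start plus the 6 with peaks in most lists. Pathway and marker genes came from fixed lists, and the members and lists were chosen with earlier results of these data known. Ratios of at least 2 or at most 0.5 were called. Motifs were exact matches in GRCm38.p6. Joining and scaling were tested on simulated data whose loci were well separated, so the chaining of neighbouring peaks was not tested. Python 3.11.15, pandas 2.3.3 and scipy 1.17.1 were used.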

Additional observations from a re-analysis of the deposited data

Results flagged for a closer look

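JunD in the third intron of Tnf had scaled KLA to Veh ratios on opposite sides of 1 in the 2 strains. The ratio was 0.587 in C57Bl/6EiJ (counts 117 and 401) and 1.05 in Balb/cJ (counts 113 and 133). The Balb/cJ interval (0.808 to 1.36) includes 1. The Balb/cJ KLA peak was centred 1496 bp past the start in the last exon and the Veh peak 1342 bp past it in the intron, so the positions differ. The 2 counting intervals do not overlap, but with 1 list per condition the difference between strains was not tested. The C57Bl/6EiJ JunD KLA list stands apart in depth, with counts 5.83 times those in Veh at the median shared locus against 1.13 times in Balb/cJ, and the part of this in the difference was not tested.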

How the results depend on the processing

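No paired analysis was possible because each condition has 1 list. For the same reason no replicate could be left out. The 27 elements became 42 when peaks were joined by centres within 100 bp, which splits the long elements over Tnf, and 43 with 50 kb on each side of the genes, and stayed between 19 and 36 under the other 4 alternatives. The 7 elements with AP-1 in C57Bl/6EiJ KLA only became 11 when counts under the median of the pooled C57Bl/6EiJ AP-1 peaks (54) were dropped and 13 with centres within 100 bp, and were 5 to 8 otherwise. The 5 in both treatments became 2 in the strongest 50% of each list and 2 with the same minimum count, and were 4 or 5 otherwise. The minimum of 54 was not scaled to each list. Every C57Bl/6EiJ JunD KLA peak passes it (lowest count 120), whereas the median count was 50 for JunD and 25 for Jun in Veh. The 2 changes with this minimum therefore cannot be told apart from list depth. Of 62 scaled ratios at named elements, none left its counting interval when scaled by summed counts, nor did the 23 KLA to Veh ratios scaled by the strongest 1000 loci. Within sites, a choice made after seeing the data, 4 of 63 did: ATF3 in Balb/cJ (0.924) and JunD between strains (2.33) over the Tnf 3′ untranslated region, and PU.1 in the first intron (1.07) and at the promoter (1.84). In whole elements instead of the central 200 bp, the TRE was in 3 named elements rather than 1, TGAGCTCA in 2 rather than 1, the PU.1 and CEBP motifs in 2 rather than 0, IRF in 2 rather than 1 and Sp1 in 3 rather than 0.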

Other observations

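The nearer JunD and FosL2 element past the end of Tnf was 1 of 14 loci in the genome with JunD and FosL2 in C57Bl/6EiJ KLA, none of the other 4 monomers in KLA, and a FosL2 centre within 2 kb past the end of a protein-coding gene. These loci were searched for after the values at Tnf had been seen. The 14 genes include Nfkbia (FosL2 count 77, rank 1763 of 10619, centred 1290 bp past its end), Ccl4 (count 65, 174 bp), Tnfaip3 (count 59, 1592 bp), Ccl3 (count 57, 595 bp), Il1a (count 46, 1155 bp) and Il1b (count 45, 572 bp). Nfkbia and Tnfaip3 encode inhibitors of NF-kB, and the other 4 encode chemokines and interleukin-1 cytokines. The remaining genes were Trim7, Vim, Ftl1, Tapbp, Gpx1, Ctdnep1 and Cpeb4, with FosL2 counts of 80, 57, 50, 28, 28, 27 and 26. The peak at Tnf, with a count of 140 and rank 47, was the strongest of the 14, and the next, at Trim7, had rank 1556. Input signal and transcription over these ends were not analysed here.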
